A study of Mus musculus with 5 samples.

Results

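This section describes 40 genes of the bone morphogenetic protein (BMP) and transforming growth factor beta (TGF-beta) pathways in mouse back epidermis. They were taken by gene name from a deposited table of 21667 genes, and by role they are 9 ligands and ligand-processing genes, 10 receptors, 6 SMADs, 11 antagonists and inhibitors and 4 target genes. The animals were wildtype C57BL/6 male mice at postnatal day 49 whose backs were shaved. The 2 forskolin libraries came from skin given 10 µM forskolin, and the 2 cAMP libraries from skin given 1.325 mM cAMP, each applied 3 times over 5 days in a vehicle of DMSO and PLO lotion. The 1 control library is labelled untreated, and the labels do not say whether that skin received the lotion. The series was designed to find what acts downstream of CREB when the hair cycle is sped up. Forskolin activates adenylyl cyclase, the enzyme that makes cAMP, and CREB is a transcription factor that cAMP signalling switches on.

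BMP and TGF-beta ligands bind paired type I and type II receptor kinases, which phosphorylate SMAD proteins. SMAD1, SMAD5 and SMAD9 carry BMP signals, SMAD2 and SMAD3 carry TGF-beta and activin signals, and SMAD4 is their shared partner in the nucleus. In skin, BMP signals hold hair follicle stem cells at rest, and secreted antagonists such as noggin and gremlin oppose them. The ID genes are direct BMP targets in many cells.

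RNA from the whole epidermal cell suspension was sequenced as stranded mRNA libraries of an estimated 34200000 to 51700000 reads. Values were deposited as CPM, read numbers divided by the library's total and put on a common scale. Mitochondrial transcripts took 69.3% of the control library and 43.2% to 58.1% of the treated ones, and nuclear genes other than pseudogenes and ribosomal RNA took 7.90% and 26.0% to 38.0%. Deposited CPM of most nuclear genes were lower in the control as well: the median gene was 1.69 log2 units higher after forskolin and 1.66 higher after cAMP. Each library was divided by a median-of-ratios size factor (0.325 for the control, 1.12 to 1.64 for the treated libraries), which brought these medians to 0.21 and 0.20. The result is called scaled CPM here, and changes are given as differences of log2(scaled CPM + 1), which understates the change of low genes. Of 12 keratinocyte markers, such as Krt5 and Krt14, 12 were detected well enough to be tested, and they summed to between 2924 and 9459 deposited CPM per library. With 1 control library, its spread was assumed to be that of the treated libraries, and p-values measure only the spread between libraries, which may be technical. In bulk RNA, fewer cells of a type and less RNA per cell cannot be told apart.

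All 40 genes were listed in the table, and 35 reached 1 CPM in at least 1 library. The 5 genes under 1 CPM in every library were Bmp6, Tgfb2, Bmpr1b, Acvr2b and Smad9. Nog, which encodes the BMP antagonist noggin, reached 1.26 CPM in forskolin 1 alone and was listed at 0 in the control. These 6 genes were not tested, and the 34 others were among the 13764 genes tested (at least 1 CPM in at least 2 libraries).

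Per kilobase of transcript, Id2 was the most abundant of the 40 genes in treated skin, at 21.9 to 33.5 scaled CPM per kb over the 4 treated libraries. Id1 was at 9.0 to 15.0, a range that did not reach that of Id2 but overlapped those of the next genes. Tgif1, a repressor that binds SMADs, at 6.07 to 10.1, Tgfbr2, the type II TGF-beta receptor, at 5.11 to 10.1, Tgfb1, a TGF-beta ligand, at 4.40 to 10.8, and Acvr1b, a type I activin receptor, at 5.82 to 8.14 scaled CPM per kb overlapped one another. The control library had Id2 at 23.8 and Id1 at 16.8 scaled CPM per kb, so the same pair was among its most abundant members, with Tgif1 at 20.4 and Bmpr1a, a type I BMP receptor, at 17.4. The last 2 values depend on how reads were shared out among transcripts, since short ones weigh more per kilobase. In the control a Tgif1 transcript of 613 bases held 2.98 of the gene's 5.79 deposited CPM. Bmpr1a transcripts of 748 and 641 bases held 1.17 and 1.15 of 13.8.

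Promoters are shown for 4 members that carry a binding motif of CREB or of SMAD proteins. Promoter sequences from RefSeq (GRCm38.p6, 250 bases before to 50 after each start site) were at hand for 27 of the 40 genes, 37 promoters in all. The full cAMP response element TGACGTCA, the motif that CREB binds, was in 1.79% of 32851 promoters, searched on both strands, and in 1 of the 37, that of Ltbp1. The shorter TGACG, which is contained in the full element, was in 20.8% of all promoters and in 7 of the 37 (Id3, Id4, Ltbp1, Smad1, Smad5, Smad9 and Tgfb2). The SMAD palindrome GTCTAGAC was in 0.213% of all promoters and in 1 of the 37, that of Smad6. The GC-rich SMAD1/5 element GGCGCC was in 11.9% of all promoters and in 12 of the 37 (32.4%), which belong to Acvr1b, Bmpr1a, Bmpr2, Grem1, Id2, Id4, Ski, Smad5, Smad9, Smurf2 and Tgfbr1. Overlapping promoters of Smad5 hold the same GGCGCC site, which is counted for each. This motif is made of G and C only, and the base composition of the promoters was not compared. A match is a stretch of letters and shows no binding.

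Below, the sequences run 5′ to 3′ on the gene's strand, with the motifs in capitals. Ltbp1 is shown for the full cAMP response element (chr17:75005279-75005578, plus strand, the first of its 2 listed promoters), and Id4 for the TGACG motif, read here on the other strand as CGTCA, followed by GGCGCC (chr13:48260866-48261165, plus strand). Tgfbr1 (chr4:47352972-47353271, plus strand) and Grem1 (chr2:113758599-113758898, minus strand) are shown for GGCGCC, as genes that changed in opposite directions.
Ltbp1: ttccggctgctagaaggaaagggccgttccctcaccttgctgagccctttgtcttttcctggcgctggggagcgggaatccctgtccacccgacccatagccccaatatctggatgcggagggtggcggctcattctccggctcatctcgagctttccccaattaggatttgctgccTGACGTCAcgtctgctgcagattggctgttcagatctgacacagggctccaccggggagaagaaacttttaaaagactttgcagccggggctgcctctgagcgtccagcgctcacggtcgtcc
Id4: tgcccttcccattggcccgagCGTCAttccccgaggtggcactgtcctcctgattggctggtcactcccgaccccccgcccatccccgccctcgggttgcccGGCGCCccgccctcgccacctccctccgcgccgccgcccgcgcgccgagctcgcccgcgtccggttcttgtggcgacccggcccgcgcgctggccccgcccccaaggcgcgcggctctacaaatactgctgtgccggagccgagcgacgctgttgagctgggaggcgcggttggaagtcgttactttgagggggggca
Tgfbr1: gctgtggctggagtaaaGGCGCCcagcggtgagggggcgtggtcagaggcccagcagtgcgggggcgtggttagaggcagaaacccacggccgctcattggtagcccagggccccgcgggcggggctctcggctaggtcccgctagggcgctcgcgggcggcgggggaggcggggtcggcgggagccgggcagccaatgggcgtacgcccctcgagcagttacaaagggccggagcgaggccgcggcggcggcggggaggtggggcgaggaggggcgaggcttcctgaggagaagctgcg
Grem1: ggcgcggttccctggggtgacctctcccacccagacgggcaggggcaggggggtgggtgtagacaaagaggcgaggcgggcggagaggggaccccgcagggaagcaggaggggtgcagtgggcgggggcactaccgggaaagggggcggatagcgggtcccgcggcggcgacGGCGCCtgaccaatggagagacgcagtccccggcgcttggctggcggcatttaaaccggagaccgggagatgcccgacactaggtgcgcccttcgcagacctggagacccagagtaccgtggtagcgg

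After forskolin, 6 of the 34 tested members rose and 3 fell against the control. After cAMP, 5 rose and 5 fell. These calls come from limma at a Benjamini-Hochberg adjusted p of 0.05 over all genes tested. The genes that rose after forskolin were Bmp1, Tgfbr1, Tgfb1, Id4, Smurf1 and Acvr1b, and those that fell were Bambi, Grem1 and Bmp2. After cAMP, Bmp1, Tgfbr1, Id4, Tgfb3 and Tgfb1 rose and Bmp2, Bmp4, Bambi, Grem1 and Smurf2 fell. Both comparisons use the 1 control library, so they are not independent. Of all genes tested, 14.9% were called higher and 6.79% lower after forskolin, and 15.4% higher and 7.23% lower after cAMP. The members' shares, 6 and 3 of 34 and 5 and 5 of 34, stand beside these backgrounds, and nothing particular to the pathway is read from them. The median change of the tested members was 0.14 after forskolin and -0.14 after cAMP on the log2 scale, beside 0.21 and 0.20 for all genes tested.

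**Figure D1:**
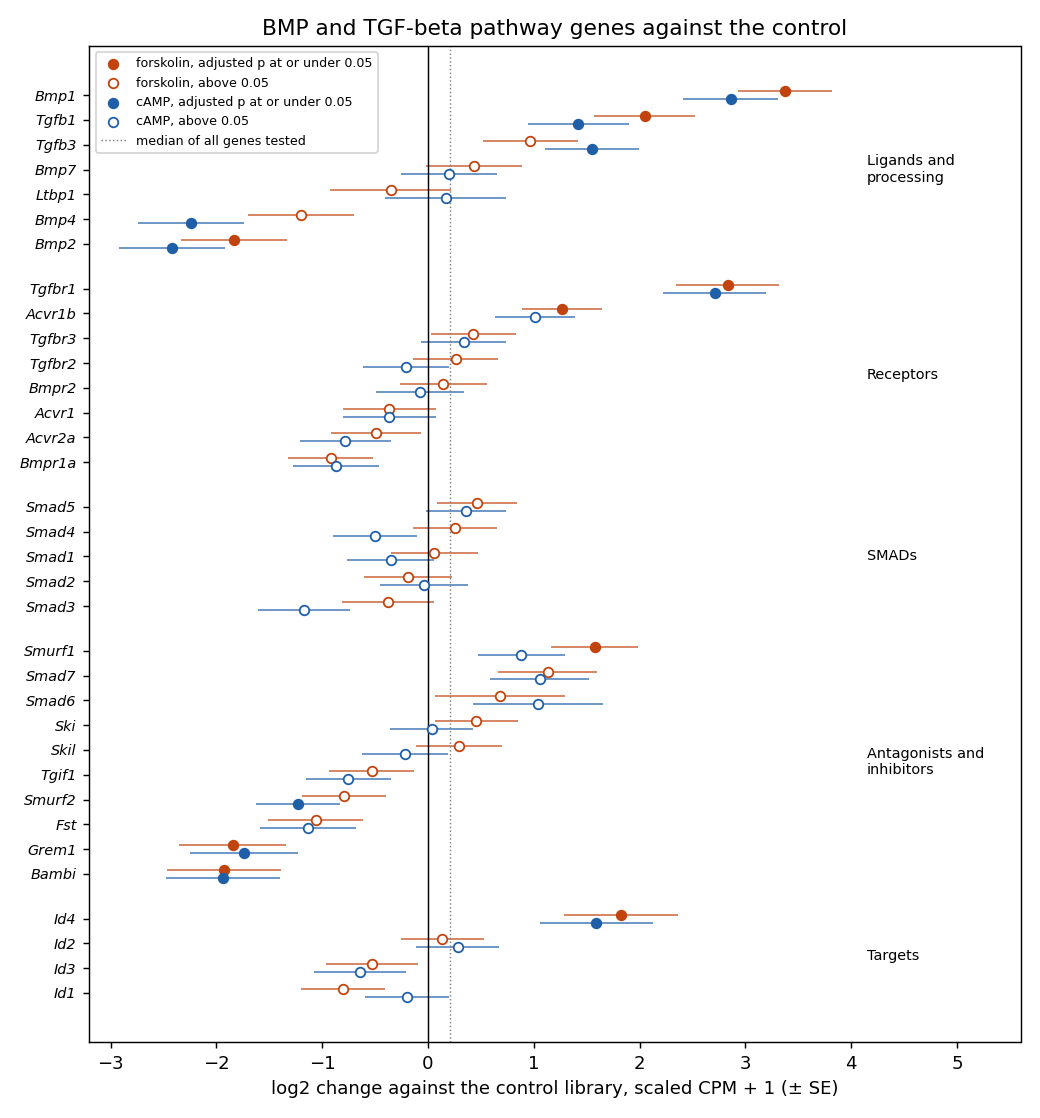
Change of each of the 34 tested members against the control library in log2(scaled CPM + 1), with forskolin in orange, cAMP in blue and bars of 1 standard error. Filled points mark an adjusted p at or under 0.05 in limma. The dotted line lies midway between the medians of all genes tested after forskolin (0.21) and after cAMP (0.20). Bmp1 (3.37 and 2.86) and Tgfbr1 (2.83 and 2.71) lie farthest to the right, Bmp2, Bambi and Grem1 lie to the left after both treatments, and every SMAD point is open, with Smad3 after cAMP (-1.17) farthest from 0.

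These counts depended on the scaling. On CPM as deposited, 23 members were called higher and 0 lower after forskolin, where 66.3% of all genes were called higher and 0.341% lower. After cAMP, 21 members were called higher and 0 lower, where 65.1% of all genes were called higher and 0.436% lower. The deposited median change of the tested members was 1.97 after forskolin and 1.60 after cAMP, against 1.69 and 1.66 for all genes. The rises named above were called with either scaling. The falls were called on scaled CPM and not on deposited CPM, where Bmp2, Bambi, Grem1 and, after cAMP, Bmp4 had negative changes of less than 1 log2 unit and Smurf2 a positive one. The filter on low values mattered too. Treated libraries alone could meet it, and the 1 control library alone could not. With all 21667 genes tested, limma still called Bmp1, Tgfbr1 and Grem1 in both comparisons and Bmp2 after cAMP, added a fall of Tgfb2 after cAMP, and lost the other calls. Id4 in both comparisons and Tgfb1 and Tgfb3 after cAMP also lost their calls after quantile normalization (limma adjusted p of 0.0509 to 0.162).

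**Figure D2:**
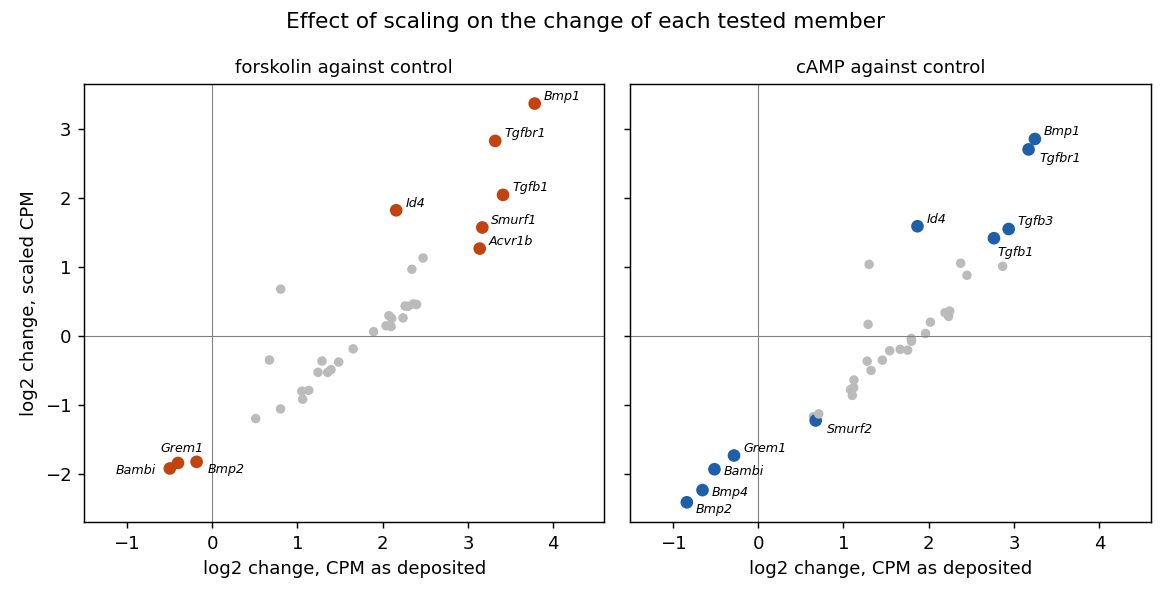
Each tested member's log2 change against the control on CPM as deposited (horizontal axis) and on scaled CPM (vertical axis), forskolin on the left and cAMP on the right, with members past the threshold on scaled CPM coloured and named. Nearly all points lie right of 0 on the horizontal axis, while on the vertical axis they spread from -1.93 to 3.37 after forskolin and from -2.42 to 2.86 after cAMP.

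The ligand genes moved apart on scaled CPM: Bmp2 fell and Bmp1 and Tgfb1 rose after both treatments, while Bmp4 fell and Tgfb3 rose after cAMP. Bmp2 (chr2:133552159-133562885) encodes a BMP ligand. It stood at 8.90 scaled CPM in the control, 2.16 and 1.46 in forskolin 1 and 2, and 1.04 and 0.682 in cAMP 1 and 2. All 4 treated libraries were below the control. The change was -1.83 ± 0.50 (SE) after forskolin (limma adjusted p = 0.0149) and -2.42 ± 0.50 after cAMP (limma adjusted p = 0.00222). Without forskolin 2 the first call was lost (limma adjusted p = 0.0714). On deposited CPM, the control had 2.90 and the treated libraries between 0.761 and 3.05, so the groups overlapped for forskolin and the changes were -0.18 and -0.84.

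Bmp4 (chr14:46383520-46390669) encodes a close relative of BMP2 that helps to keep follicles at rest. Its scaled CPM was 9.31 in the control, 4.72 and 2.51 after forskolin, and 0.828 and 1.60 after cAMP. The 3 groups did not overlap, with cAMP lowest. The change was -2.24 ± 0.50 after cAMP (limma adjusted p = 0.00404) and -1.20 ± 0.50 after forskolin, which missed the threshold (limma adjusted p = 0.0911). On deposited CPM the forskolin change was positive, 0.51, and the cAMP change was -0.65, neither called by limma.

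Tgfb1 (chr7:25687002-25705077) encodes the TGF-beta ligand best known as a brake on keratinocyte growth. It stood at 2.49 scaled CPM in the control, an estimated 40 reads, at 8.95 and 19.9 after forskolin and at 9.99 and 6.93 after cAMP. All 4 treated libraries were above the control, and the forskolin and cAMP ranges overlapped. The change was 2.05 ± 0.48 (SE) after forskolin (limma adjusted p = 0.00598) and 1.42 ± 0.48 after cAMP (limma adjusted p = 0.0394). Each of 3 left-out libraries ended a call: without forskolin 2 the limma adjusted p was 0.0527, without cAMP 1 it was 0.184 and without cAMP 2 it was 0.0748.

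Tgfb3 (chr12:86056744-86079041), another TGF-beta ligand, was at 2.75 scaled CPM in the control, 4.85 and 8.18 after forskolin, and 9.58 and 10.4 after cAMP. The groups did not overlap, and cAMP was highest. It rose after cAMP by 1.55 ± 0.45 (limma adjusted p = 0.0181), a call lost without cAMP 1 (0.0584) or cAMP 2 (0.0694), and changed by 0.97 ± 0.45 after forskolin without passing the threshold (limma adjusted p = 0.123).

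Bmp1 (chr14:70474557-70520260) is a protease rather than a growth factor: it trims procollagens and the BMP antagonist chordin. It was listed at 0 in the control and at 8.64 and 10.2 scaled CPM after forskolin and 6.58 and 5.96 after cAMP. Every treated library was above the control, and forskolin above cAMP. Set against a floor of 3 reads in the control, the forskolin mean was at least 50.3-fold higher and the cAMP mean at least 33.5-fold higher. The fitted changes, which depend on the added 1, were 3.37 ± 0.45 (limma adjusted p = 9.29e-05) and 2.86 ± 0.45 (limma adjusted p = 0.000242), and limma called both under every alternative.

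The control library lists many genes at 0 where the other libraries would predict reads. At the treated level, 126 control reads were expected for Bmp1, 107 for Tgfbr1 and 37.8 for Id4. Among genes with 100 or more expected reads, 102 of 7704 (1.32%) had under 1 read in the control, against at most 0.209% in a treated library. At 20 or more expected reads the share was 8.41% in the control and at most 1.87% in the others. The part of this in the rises of Bmp1, Tgfbr1 and Id4 was not tested.

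The remaining ligand genes showed no called change. Bmp7, a BMP ligand of epithelia, was at 12.0 scaled CPM in the control, 13.9 and 19.6 after forskolin, and 20.6 and 9.23 after cAMP, and the cAMP libraries lay on either side of the control. Ltbp1, which tethers latent TGF-beta to the matrix and has the full cAMP response element in 1 of its promoters, was at 1.73 in the control, 0.351 and 2.40 after forskolin, and 2.32 and 1.83 after cAMP. The listed transcript that starts at the promoter shown was at 1.62 CPM as deposited in forskolin 2 and listed at 0 in the other 4 libraries, so the gene's value elsewhere came from transcripts with other starts. The gene's changes were -0.35 ± 0.57 and 0.17 ± 0.57, with limma adjusted p of 0.68 and 0.857. Bmp6 reached at most 0.644 CPM and Tgfb2 0.926 CPM as deposited.

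**Figure D3:**
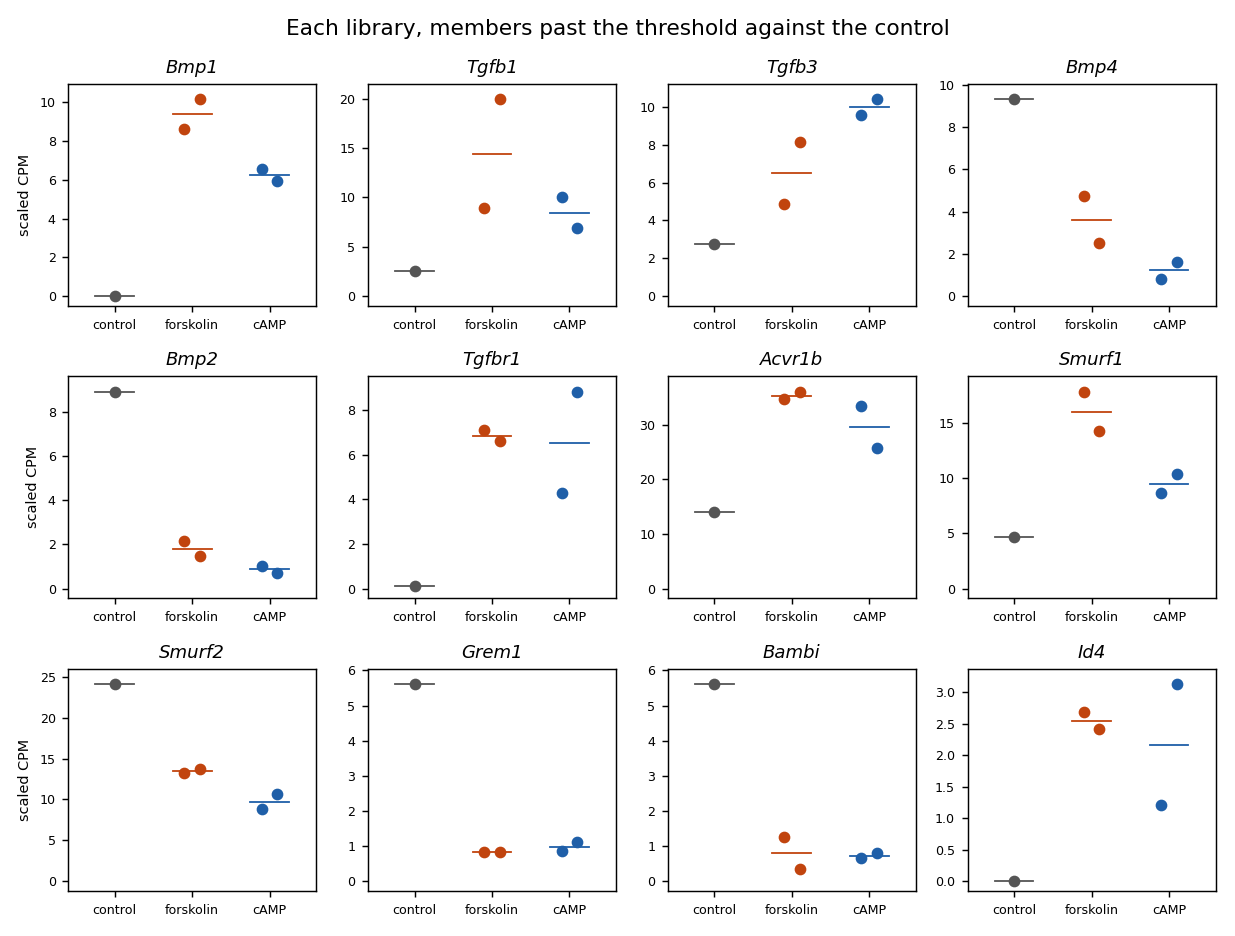
Scaled CPM of the 12 members past the threshold in either comparison with the control, 1 point per library and a line at each group's mean, on linear axes that include 0. Bmp2, Bmp4, Smurf2, Grem1 and Bambi have the control on top, while Bmp1, Tgfbr1 and Id4 have it at or near 0 (Tgfbr1 at 0.1 scaled CPM).

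Among the receptors, 2 type I receptors of the activin and TGF-beta branch were higher after forskolin on scaled CPM, where no BMP receptor was called. On deposited CPM limma called 7 of the 8 tested receptors higher after forskolin and 6 after cAMP, Bmpr2 (2.04 and 1.80) and Acvr1 (1.29 and 1.28) included. Of all genes tested, 66.3% and 65.1% were called higher there. Tgfbr1 (chr4:47353222-47414931), the type I TGF-beta receptor, was at 0.1 scaled CPM in the control, an estimated 1.61 reads. It stood at 7.08 and 6.59 after forskolin and 4.27 and 8.81 after cAMP, all far above the control. The forskolin mean was 68.1 times the control value, with a counting interval of 16.6 to 819. For cAMP the mean was 65.1 times the control value, with an interval of 15.9 to 783. These 95% intervals are approximate, from Poisson limits on an estimated control read number that is not whole. The fitted changes were 2.83 ± 0.49 and 2.71 ± 0.49 (limma adjusted p = 0.000671 and 0.000772), called under every alternative in which the gene was tested.

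Acvr1b (chr15:101174067-101213679), a type I activin receptor, was at 14.1 scaled CPM in the control, 34.6 and 36 after forskolin, and 33.5 and 25.7 after cAMP. The treated libraries were all above the control. It rose by 1.27 ± 0.38 after forskolin (limma adjusted p = 0.024, and 0.0603 without forskolin 2), and the change of 1.01 ± 0.38 after cAMP missed the threshold (limma adjusted p = 0.0631).

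Bmpr1a, the type I BMP receptor needed for normal hair follicle cycling, was at 42.4 scaled CPM in the control, 23.3 and 20.6 after forskolin, and 17.3 and 30.1 after cAMP. All 4 treated values were below the control, but the changes of -0.92 ± 0.41 and -0.87 ± 0.41 did not pass the threshold (limma adjusted p = 0.107 and 0.131). On deposited CPM its changes were positive, 1.06 and 1.10, with limma adjusted p of 0.0883 and 0.0778. Bmpr2, the type II BMP receptor, had 17.4 scaled CPM in the control, 21.4 and 17.6 after forskolin, and 12.5 and 21.6 after cAMP, with cAMP on either side of the control.

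Tgfbr2, which pairs with Tgfbr1, was at 35.6 scaled CPM in the control, 42.6 and 43.0 after forskolin, and 22.9 and 40.8 after cAMP. The co-receptor gene Tgfbr3 was at 14.6 in the control, 17.7 and 22.7 after forskolin, and 15.3 and 23.0 after cAMP. Neither was called. Acvr2a, a type II activin receptor, was at 17.7 scaled CPM in the control, 15.6 and 9.63 after forskolin, and 8.08 and 12.0 after cAMP, all below the control and not called. Acvr1 was at 6.66 and between 4.65 and 5.25. Bmpr1b reached at most 0.412 CPM and Acvr2b 0.906 CPM as deposited.

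On scaled CPM none of the 5 tested SMADs was called in any comparison. On deposited CPM limma called 5 of the 5 higher after forskolin and 4 of the 5 after cAMP, beside 66.3% and 65.1% of all genes. The median changes of the SMADs were 1.89 and 1.46, near those of all genes. Smad5, a BMP signal carrier, was at 17.4 scaled CPM in the control, 25.8 and 23.1 after forskolin, and 21.2 and 24.2 after cAMP. Smad4, the shared partner, was at 13.5 in the control, 18.1 and 14.7 after forskolin, and 9.28 and 9.21 after cAMP. The forskolin libraries thus lay above the control and the cAMP libraries below it, with changes of 0.25 ± 0.40 and -0.50 ± 0.40 (limma adjusted p = 0.666 and 0.375).

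Smad3, a TGF-beta signal carrier, was at 15.4 scaled CPM in the control, 11.4 and 11.9 after forskolin, and 4.53 and 8.6 after cAMP. Its change after cAMP was -1.17 ± 0.44 (limma adjusted p = 0.0601), just short of the threshold. Smad1 and Smad2 were at 12.5 and 13.5 in the control and between 8.13 and 15.9 in the treated libraries. Simulated data with 200 changed genes and the same preset spread for every gene gave rates of detection for forskolin against the control. They were 2.54% for 2-fold changes, 37.8% for 4-fold and 87.7% for 8-fold. In the data limma called 2985 genes in this comparison, and with more genes called the adjusted threshold is less strict. The rates therefore hold for the simulated settings only and do not measure the reach of the test on these data. An uncalled change here is still no sign that a gene kept its level.

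The antagonists and inhibitors did not move as one. The cell-surface and secreted antagonist genes Bambi and Grem1 fell, as did the ubiquitin ligase gene Smurf2 after cAMP, while its relative Smurf1 rose after forskolin. Grem1 (chr2:113746164-113758646) encodes gremlin, a secreted antagonist that binds BMP2 and BMP4. It was at 5.6 scaled CPM in the control, an estimated 90.0 reads, and at 0.831 and 0.841 after forskolin and 0.864 and 1.10 after cAMP. The 4 treated libraries lay close together, well below the control. The changes were -1.85 ± 0.51 (limma adjusted p = 0.0158) and -1.74 ± 0.51 (limma adjusted p = 0.0201, and 0.0596 without cAMP 1).

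Bambi (chr18:3507957-3516404) encodes a decoy receptor without a kinase domain that damps TGF-beta and BMP signals. It stood at 5.6 scaled CPM in the control, also an estimated 90.0 reads, 1.27 and 0.330 after forskolin, and 0.663 and 0.787 after cAMP. The control was again above all treated libraries. Bambi fell by 1.93 ± 0.54 on the log2 scale after forskolin (limma adjusted p = 0.0169, and 0.111 without forskolin 2) and by 1.94 ± 0.54 after cAMP (limma adjusted p = 0.0149, and 0.0579 without cAMP 1). On deposited CPM, Bambi was at 1.82 in the control and between 0.433 and 1.79 in treated skin, and Grem1 at 1.82 and between 1.10 and 1.41. For both genes the control was thus highest with either scaling, though limma called no fall on deposited CPM (adjusted p of 0.492 to 0.702).

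Smurf1 (chr5:144876495-144965847) and Smurf2 (chr11:106820066-106920715) encode ubiquitin ligases that mark SMADs and receptors for breakdown. Smurf1 was at 4.67 scaled CPM in the control, 17.8 and 14.2 after forskolin, and 8.59 and 10.4 after cAMP. The 3 groups did not overlap and forskolin was highest, with a change of 1.57 ± 0.41 (limma adjusted p = 0.0117) against 0.88 ± 0.41 after cAMP (limma adjusted p = 0.129). Smurf2 was at 24.1 in the control, 13.2 and 13.8 after forskolin, and 8.79 and 10.7 after cAMP. The order was the opposite, with the control highest and cAMP lowest. Smurf2 fell after cAMP by 1.23 ± 0.40 on the log2 scale (limma adjusted p = 0.0319, 0.109 without cAMP 1 and 0.0581 without cAMP 2), but on deposited CPM the sign turned, to 0.67 (limma adjusted p = 0.281).

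Transcripts within a gene did not keep to 1 class. In the control, 99.7% of the Smurf1 value came from a transcript annotated as a retained intron, against 40.1% and 13.3% after forskolin and 66.1% and 3.98% after cAMP. For Ski, a co-repressor of SMADs, transcripts not annotated as protein coding made up 29.7% in the control, 75.7% and 14.9% after forskolin, and 75.7% and 97.9% after cAMP. Replicates of 1 group differed as much as groups did. The summed Ski value was steadier, at 24.5 scaled CPM in the control, 27.4 and 42.0 after forskolin, and 24.6 and 25.5 after cAMP. For Tgfb1, non-coding classes held 32.0% and 6.59% after forskolin and 0.309% and 11.2% after cAMP, and for Acvr2a between 4.36% and 27.3% over the 5 libraries. The gene sums used for the tests include all these transcripts.

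**Figure D4:**
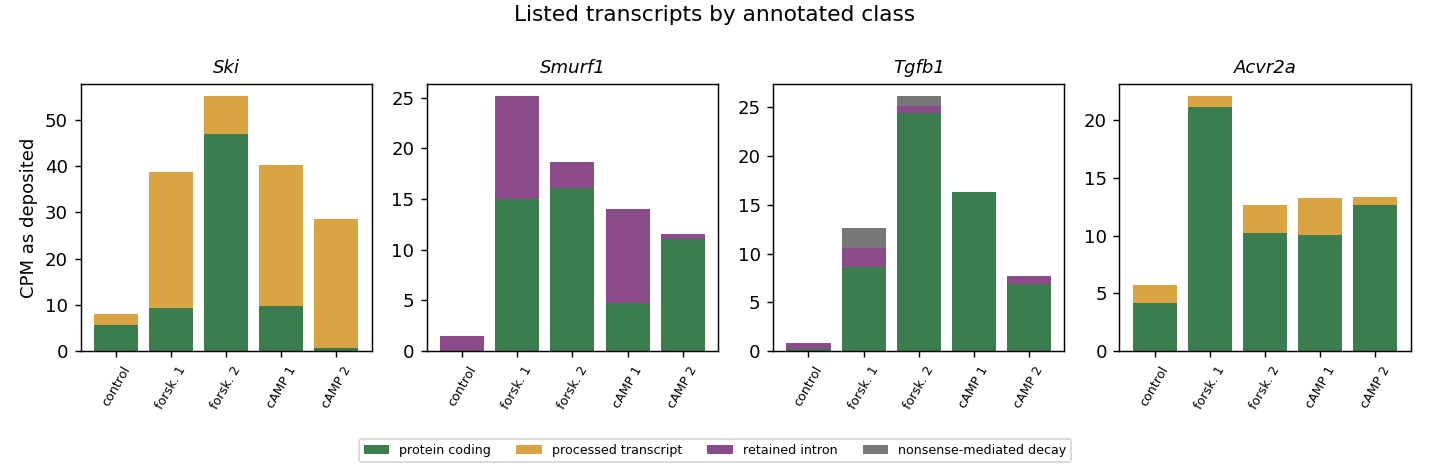
Deposited CPM of Ski, Smurf1, Tgfb1 and Acvr2a in each library, stacked by the annotated class of the transcript. The coding part of Ski is largest in forskolin 2 and smallest in cAMP 2, where other classes make up 97.9%, and the control bar of Smurf1 is nearly all retained intron (99.7%).

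The other inhibitors showed no called change. Fst, which encodes the activin antagonist follistatin, was at 17.0 scaled CPM in the control, 9.5 and 6.08 after forskolin, and 5.32 and 9.63 after cAMP, all below the control (limma adjusted p = 0.0969 and 0.0776). The inhibitory SMAD gene Smad7 was at 2.49 in the control, 6.36 and 6.95 after forskolin, and 4.39 and 8.75 after cAMP, all above it (limma adjusted p = 0.0896 and 0.113). Smad6, the other inhibitory SMAD gene, was listed at 0 in the control and in forskolin 1, at 1.56 in forskolin 2, and at 1.40 and 0.761 after cAMP. Skil, a relative of Ski, was at 9.65 in the control and between 8.0 and 13.0 in treated skin, and Tgif1 was at 17.8 and between 9.21 and 13.6.

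Of the 4 ID genes, Id4 alone was called on scaled CPM. On deposited CPM limma also called Id2 higher after both treatments (2.10 and 2.23) and Id1 after cAMP (1.67). Id4 was listed at 0 in the control and stood at 2.68 and 2.41 scaled CPM after forskolin and 1.21 and 3.12 after cAMP. Against the floor of 3 control reads, this was at least 13.6-fold higher after forskolin and at least 11.6-fold higher after cAMP. The fitted changes were 1.82 ± 0.54 (limma adjusted p = 0.022, and 0.0564 without forskolin 1) and 1.59 ± 0.54 (limma adjusted p = 0.0396, and 0.166 without cAMP 2). The Id4 promoter shown above carries both motifs, but it ends at position 48261165, and the 1 listed Id4 transcript starts beyond it, at 48261427.

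Id1, often used as a readout of BMP signalling, was at 15.7 scaled CPM in the control, 8.54 and 8.56 after forskolin, and 14.2 and 13.0 after cAMP. Both forskolin libraries lay below the other 3, but neither the change against the control, -0.81 ± 0.40 (limma adjusted p = 0.15), nor the difference from cAMP, -0.61 with an interval of -1.29 to 0.07, passed the threshold. Id2 was at 30.2 in the control, 39.8 and 27.8 after forskolin, and 32.0 and 42.6 after cAMP. Id3 was at 10.2 in the control and between 4.93 and 7.71 in treated skin, with changes of -0.53 ± 0.44 and -0.64 ± 0.44.

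Forskolin and cAMP did not differ by a called amount in any member. limma called 0 of the 34 tested members, beside 0.443% of all genes tested (61 genes), and 3 members had an unadjusted p under 0.05, beside 1555 of all genes. These 3 were higher after forskolin: Bmp4 by 1.04 (95% interval 0.18 to 1.90), Smad3 by 0.79 (0.05 to 1.54) and Smad4 by 0.76 (0.07 to 1.44). Their adjusted p were 0.329, 0.413 and 0.385 in limma. On deposited CPM 0 members were called as well. The intervals of the other members reached up to 1.45 log2 units in favour of forskolin and 1.5 in favour of cAMP, so differences of that size are not excluded for those members. The doses were in different units and agents, and no matched dose exists. On simulated data made in the same way, the rates for forskolin against cAMP were 7.16% at 2-fold, 65.7% at 4-fold and 95.6% at 8-fold. These rates too hold for the simulated settings only.

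**Figure D5:**
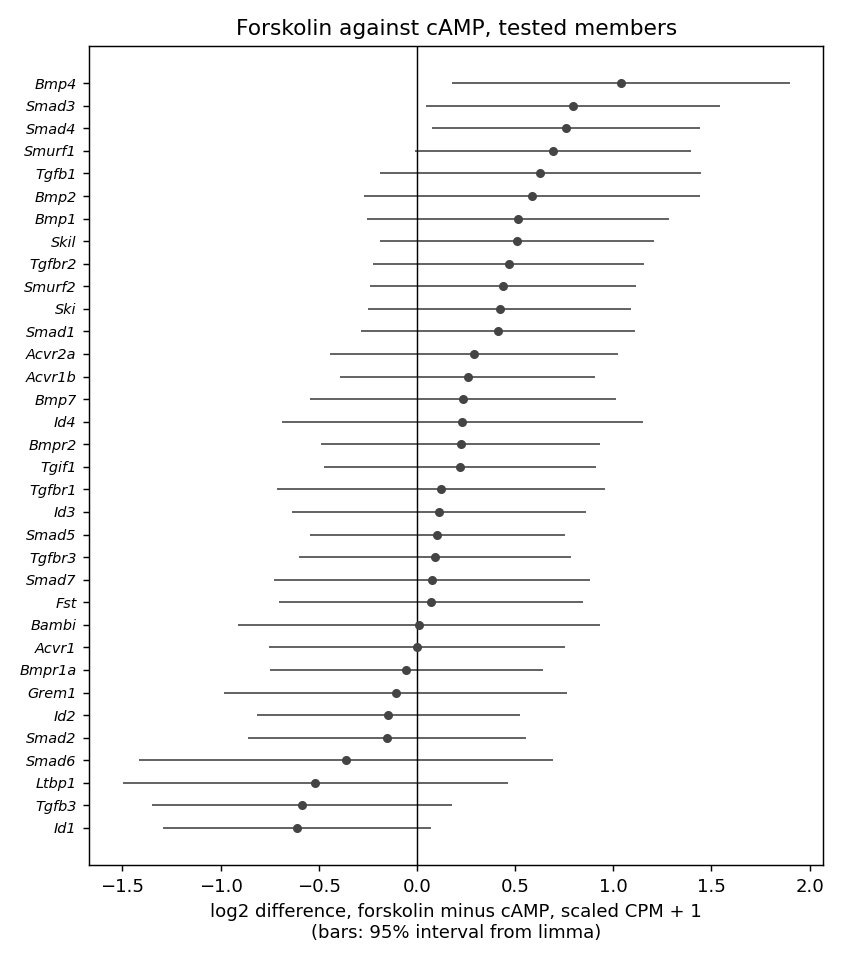
Difference between forskolin and cAMP for the 34 tested members, in log2(scaled CPM + 1), with 95% intervals from limma. Bmp4 is at the top (1.04) and Id1 at the bottom (-0.61), and the intervals of 31 members include 0.

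Other genes of the pathways were taken from 5 lists of 93 genes, of which 78 were in the table and 63 were tested. After forskolin 12 of the 63 rose and 4 fell, with a median change of -0.03. After cAMP 6 rose and 9 fell, with a median of -0.21. Of all genes tested, 14.9% were called higher and 6.79% lower after forskolin, and 15.4% and 7.23% after cAMP. The medians of all genes were 0.21 and 0.20. On deposited CPM 43 of the 63 were called higher and 0 lower after forskolin (median 1.69). After cAMP 39 were called higher and 0 lower there (median 1.47). Of all genes, 66.3% and 65.1% were called higher on deposited CPM. The changes that follow are on scaled CPM. Between forskolin and cAMP, limma called 0 of the 63, and 8 had an unadjusted p under 0.05, beside 1555 of all 13764 genes tested. Among ligands and latency genes (13 tested), Furin, whose protease cuts TGF-beta precursors, rose after forskolin, from 17.4 scaled CPM to 48.3 and 71.5 (1.70 ± 0.39, limma adjusted p = 0.00508). Bmp3 fell after cAMP, from 9.53 to 0.816 and 0.446 (-2.70 ± 0.51, limma adjusted p = 0.00105), next to the falls of Bmp2 and Bmp4. Itgav, an integrin chain that releases latent TGF-beta, was at 32.9 in the control and between 8.63 and 16.4 in treated skin, and fell after both. Inha rose after forskolin from a listed 0, and Ltbp3 rose after cAMP from 12.7 to 30.9 and 31.5.

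Of 7 receptors and co-receptors tested, Rgma, a BMP co-receptor, rose after both, from 4.11 scaled CPM to between 14.2 and 30.8. Vasn, which encodes a TGF-beta-binding membrane protein, rose after forskolin from a listed 0 to 3.24 and 2.49. Cd109, a TGF-beta co-receptor of keratinocytes, fell after cAMP, from 92.8 to 36 and 39.0. Of 16 inhibitors and modulators tested, Tob2 rose after forskolin and Twsg1, which modulates BMP binding to chordin, fell after both, from 37.1 to between 14.1 and 18.3. Crim1 fell after cAMP, from 17.6 to 6.26 and 7.19, and was at 20.5 and 15.4 after forskolin.

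Of 14 signal carriers and cofactors tested, Zfyve16, an endosomal SMAD anchor, rose after both from a listed 0 to between 3.93 and 7.95 scaled CPM. Zeb2, a SMAD-binding repressor, fell after both, from 19.1 to between 1.11 and 4.46. Runx3 and Lemd3 rose after forskolin, and Zfyve9 fell after cAMP. Of 13 further target genes tested, Tgm2 and Ctgf rose after both, each from a control value under 1 scaled CPM, and Junb rose after cAMP, from 9.40 to 45.2 and 22.7. Fn1, the fibronectin gene, fell after both, from 18.5 to between 1.59 and 4.62. As with the members, the sign of the smaller falls (Itgav, Cd109, Twsg1, Crim1 and Zfyve9) turned positive on deposited CPM, and the falls of Zeb2, Fn1 and Bmp3 stayed negative but were not called there (limma adjusted p of 0.101 to 0.658).

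Markers of other cell types moved between the same libraries. Of 14 dermal fibroblast markers, 10 were tested and 5 fell after forskolin and 2 after cAMP, with a summed level of 767 scaled CPM in the control, 320 and 503 after forskolin, and 338 and 515 after cAMP. Pdgfra, Pdgfrb and Mfap5 were under 1 read in the control. On deposited CPM the order of the sums was the reverse, 249 in the control and 452 to 660 in treated skin. Gene by gene, 3 of the 10 tested were called lower after forskolin there and 0 after cAMP. After each treatment 3 were called higher. The median changes were -0.49 and 0.71, beside 1.69 and 1.66 for all genes, of which 0.341% and 0.436% were called lower. The fall on scaled CPM stands beside those of Bmp2, Bmp4, Grem1, Bambi and Fn1, and its part in them was not tested.

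Sebaceous gland markers went the other way: 8 of 12 rose after forskolin and 10 of 12 after cAMP, with sums of 804 scaled CPM in the control, 1762 and 2957 after forskolin, and 4826 and 6674 after cAMP. Pparg was under 1 read in the control, and 4 of the 12 were lower after forskolin than after cAMP. Keratinocyte markers summed to 8993 in the control, 5773 to 6690 after forskolin, and 3786 to 5557 after cAMP, and 0 rose while 2 and 4 of 12 fell. On deposited CPM they summed to 2924 in the control and 4222 to 9459 in treated skin, and 7 and 1 of 12 rose while 0 fell. Of 12 hair follicle markers 3 and 2 fell, and of 8 skeletal muscle markers 2 and 2 fell. On deposited CPM 0 of either fell, while 4 and 5 hair follicle markers and 0 and 1 muscle markers rose. Of 8 Langerhans cell markers 1 rose after forskolin, and of 9 T cell and NK cell markers 0 were called. On deposited CPM 9 of these 9 and 8 of the 8 Langerhans cell markers were higher after both treatments. Of all genes, 14.9% and 15.4% were called higher and 6.79% and 7.23% lower on scaled CPM. On deposited CPM 66.3% and 65.1% of all genes were called higher. Of 10 endothelial and mural markers only 1 could be tested, and 7 were under 1 read in the control. The part of these shifts in the members' changes was not tested.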

How the data were processed

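RNA of total epidermis was measured in 5 libraries (1 control, 2 forskolin, 2 cAMP). The submitters' processing notes name bcl2fastq 2.17, STAR and Partek, with no order or settings. For genome build and gene models, none is given in the sources used here. Deposited CPM, a unit read from the values, were listed for 59869 transcripts, and the columns were matched to samples by the library codes in the labels. Where a transcript had no reads, the authors' CPM hold a small offset. Taken as 0.0001 read, it gave the depths used (34200000 to 51700000 reads). Between 59.6% and 75.7% of low gene sums lay within 0.1 of a whole read, so no count model was run. Intervals and floors cover counting error only. Positions are those of the table: 101 of 113 member transcripts had the same start, end and strand in GENCODE M21 (GRCm38).

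Transcripts were summed per gene (21667 genes; 3 rows lacked a gene identifier, took up to 0.0679% of a library's CPM and were dropped). CPM were divided by median-of-ratios size factors over 11935 genes. Changes in log2(scaled CPM + 1) were tested with limma 3.58.1 (R 4.3.3, trend over mean level) for the 13764 genes with at least 1 deposited CPM in at least 2 libraries, in 1 fit of 5 libraries and 3 groups (2 residual and 16.35 prior degrees of freedom), 2-sided, with Benjamini-Hochberg adjustment within each comparison at 0.05. The code was tested on simulated data, 200 changed genes in each of 10 simulations. The closing section gives the effect of other scalings, pseudocounts, filters and left-out libraries.

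Values in every library are given for members past the threshold in any comparison or at 20 deposited CPM or more, and the other pathway genes named are those past it with the smallest adjusted p, at most 4 per list and comparison; 1 such gene is not reported here. The members and lists were chosen with earlier results of these data known.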

Additional observations from a re-analysis of the deposited data

How the results depend on the processing

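Besides the scaling, 1 control library and 2 libraries per treatment set the limits: leaving out 1 treated library gave 4 to 6 members higher and 1 to 3 lower after forskolin, and 2 to 5 higher and 2 to 6 lower after cAMP. On CPM as deposited the counts were 23 higher and 0 lower after forskolin and 21 higher and 0 lower after cAMP. With no filter on low values they were 2 and 1 after forskolin and 2 and 3 after cAMP, and with a filter of 10 CPM, which left 23 members, 0 were lower after forskolin and 3 higher and 1 lower after cAMP. After cAMP, quantile normalization left 2 higher and a pseudocount of 5 left 3 higher. Signs turned on CPM as deposited for members called in 1 setting: after forskolin Acvr1 to 1.29, Acvr2a to 1.39, Smad2 to 1.65, Smad3 to 1.48 and Tgif1 to 1.35, and after cAMP Bmpr2 to 1.80, Acvr1 to 1.28, Tgfbr2 to 1.75, Smad1 to 1.46, Smad2 to 1.79, Smad4 to 1.32, Smurf2 to 0.67, Skil to 1.54 and Id1 to 1.67. The cause was not tested beyond the scaling itself. Over all genes, 68.7% of forskolin calls and 68.1% of cAMP calls were higher, against 99.5% and 99.3% on CPM as deposited and 53.5% and 54.2% after quantile normalization. All genes called numbered 2985 and 3121, and 9177 and 9025 on CPM as deposited. Replicate numbers were not shown to pair libraries (r = -0.07 between the 2 treatments' replicate differences). A replicate block in the comparison of forskolin with cAMP called 0 members higher and 0 lower, and 185 genes in all against 61 without it. That fit had 1 residual and infinite prior degrees of freedom, so the larger number cannot be credited to the block. The fits without forskolin 1 or forskolin 2 also had infinite prior degrees of freedom, and the fit on CPM as deposited had 360.2. Calls held under every alternative tested only for Bmp1 and Tgfbr1, in both comparisons with the control.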
